A study of Homo sapiens with 6 samples.

Results

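The 10 genes here, which the transcription factor NRF2 is known to switch on, were followed in HepG2 cells after knockdown of PAIP1. They are AKR1C1, AKR1C2, AKR1C3, AKR1B10, NQO1, GCLM, GCLC, TXNRD1, SRXN1 and HMOX1. They were chosen by name, with earlier results of these data known, as the rows of the count and FPKM tables whose symbol is one of these. All 10 were found among 30987 genes. HepG2 is an established human liver cancer cell line. In the siPAIP1 group, 3 cultures were transfected with siRNA3, an siRNA against PAIP1, and in the Ctrl group 3 cultures were transfected with a non-targeting control siRNA. Cells of all 6 cultures were collected after 48 h, and poly(A) RNA was sequenced with paired reads. The data therefore describe 1 siRNA, 1 cell line and 1 time, and RNA only, and NRF2 protein was not analysed here. PAIP1 is a protein that binds the poly(A)-binding protein and promotes translation initiation.

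NRF2, the product of NFE2L2, is normally held by KEAP1, an adaptor of a CUL3 and RBX1 ubiquitin ligase, and degraded. Oxidants and electrophiles modify KEAP1, so that NRF2 accumulates, pairs with a small MAF protein and binds antioxidant response elements, while BACH1 competes for the same elements. Its target genes encode enzymes that reduce reactive carbonyls and quinones, make glutathione, keep thioredoxin reduced and break down heme, and NRF2 is often active in liver cancer.

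PAIP1 itself, on chromosome 5 (GRCh38 chr5:43526267-43557758, minus strand), was measured at 8.29, 6.54 and 5.47 FPKM in siPAIP1 cells, against 26.8, 23.0 and 26.0 FPKM in Ctrl cells. FPKM is the authors' level per length of exon, scaled to the mapped fragments of the library. The groups did not overlap, and PAIP1 fell by 1.93 ± 0.13 (SE) on the log2 scale (adjusted p = 0.00092, edgeR quasi-likelihood test with Benjamini-Hochberg adjustment over 15528 tested genes). An exact two-sided permutation test of the FPKM values gave p = 0.1, the smallest that 3 against 3 libraries allow. The antisense strand of the siRNA is shown because it is the strand that pairs with PAIP1 RNA. Its seed, bases 2 to 8, is in capitals, and the last 2 bases are an overhang.
siRNA3 antisense: uAUCAUCCaaguauggauctt
A complete match to its 19 paired bases was found in the annotated transcripts of 2 genes, PAIP1, where it lies in the coding sequence, and its pseudogene PAIP1P2, and in none of the 10 NRF2 target genes. The word that pairs with the seed, GGATGAT, occurs in the reference transcripts of GCLC (3 times, 1 of them in the 3′ UTR) and TXNRD1 (1 time, in the 3′ UTR) and in none of the other 8. That is 2 of 10 transcripts, against 21.7% of 19061 MANE Select transcripts of all lengths, and it is a match of letters only. Per kilobase, the word occurred 0.126 times in the 10 transcripts and 0.0753 times in all MANE Select transcripts. Any effect of the seed on GCLC or TXNRD1 was not tested.

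The libraries held 33948514, 34157368 and 29313211 counted fragments in siPAIP1 cells and 34659866, 33527439 and 31045623 in Ctrl cells. All 8 hepatocyte markers examined were present at 1 FPKM or more on average, and their summed level was 1509 to 2339.9 FPKM in siPAIP1 cells, against 2663 to 2831 FPKM in Ctrl cells. Albumin, ALB, was at 557, 449 and 279 FPKM in siPAIP1 cells, against 744, 685 and 701 FPKM in Ctrl cells. In edgeR, ALB (log2 fold change -0.77, adjusted p = 0.045), APOA1 (-0.51, 0.019), TTR (-0.52, 0.030) and SERPINA1 (-0.45, 0.040) fell. AFP (-0.46, 0.13), HNF4A (-0.25, 0.27), FGB (-0.14, 0.57) and APOB (-0.05, 0.81) did not pass. The hepatocyte sum moved with the genes below, and its part in their change was not tested. Endothelial markers summed to at most 0.28 FPKM in siPAIP1 cells and 0.30 FPKM in Ctrl cells, fibroblast markers to at most 0.18 FPKM in siPAIP1 cells and 0.10 FPKM in Ctrl cells, and the leukocyte gene PTPRC had at most 1 count. The macrophage list summed to 183 to 269.8 FPKM in siPAIP1 cells and 260.4 to 287 FPKM in Ctrl cells, nearly all of it LYZ. The cholangiocyte list, KRT7, KRT19, SOX9 and EPCAM, summed to 830.1 to 966 FPKM in siPAIP1 cells and 779 to 957 FPKM in Ctrl cells, most of it KRT19 (728 to 841 FPKM in siPAIP1 cells and 650.4 to 822 FPKM in Ctrl cells). KRT7 was at 0.87, 1.08 and 1.17 FPKM in siPAIP1 cells, against 2.12, 2.09 and 3.10 FPKM in Ctrl cells, and fell by 1.24 ± 0.21 (SE) on the log2 scale (adjusted p = 0.013, edgeR). KRT19, SOX9 and EPCAM did not pass, and the part of this list in the change of the genes below was not tested.

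Of the 10 NRF2 target genes, 7 fell after PAIP1 knockdown, none rose and 3 did not pass the edgeR test at an adjusted p under 0.05. None rose at an unadjusted p under 0.05 or with DESeq2 or limma. Leaving out 1 library gave 3 to 9 that fell, with 3 without Ctrl replicate 3 and 4 without Ctrl replicate 1. The genes that fell were AKR1C1, AKR1C2, AKR1B10, GCLC, TXNRD1, SRXN1 and HMOX1, and those that did not pass were AKR1C3, NQO1 and GCLM. Over all 15528 tested genes 6.2% fell and 5.68% rose. In number, 963 of all tested genes fell, and 269 to 1952 when 1 library was left out. Among the 5101 genes whose mean level was at or above that of the lowest of the 10, 8.65% fell and 5.04% rose. All 10 fold changes were below 0, with a median log2 fold change of -0.61, against a median of 0.03 over all tested genes, where 45.1% were below 0. AKR1C1 and AKR1B10 also passed the study's second threshold, a fold change of 0.5 or less, which 1.1% of all tested genes passed in that direction. On CPM, counts scaled to the library total with a TMM correction, the highest siPAIP1 library was lower than the lowest Ctrl library for 9 of the 10 genes, all but NQO1. The same held for 17.6% of all tested genes and for 23.1% of those 5101 genes. The 10 genes together took 0.363%, 0.326% and 0.271% of all counts in siPAIP1 cells, against 0.531%, 0.457% and 0.589% in Ctrl cells.

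**Figure D1:**
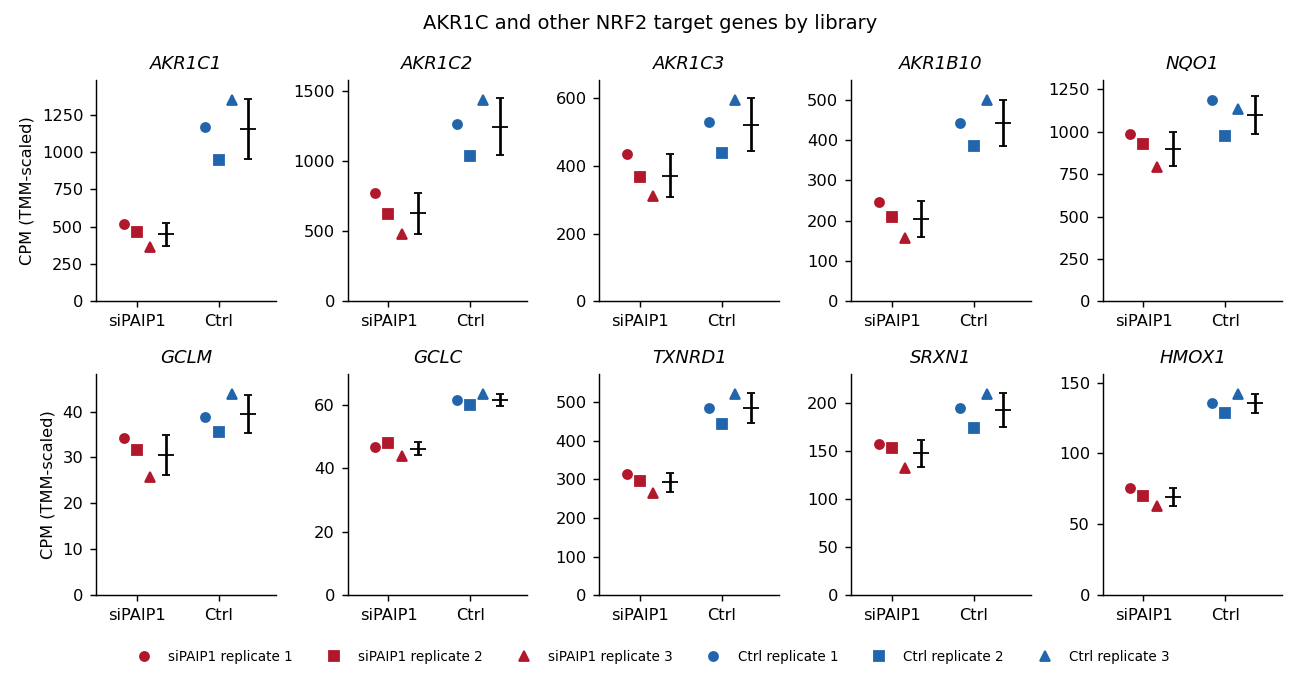
TMM-scaled CPM of each gene (y axis, linear, from 0) in the 3 siPAIP1 libraries (red, left) and the 3 Ctrl libraries (blue, right), with the mean and SD in black. The groups are apart for 9 of the 10 genes and overlap for NQO1, and siPAIP1 replicate 3 and Ctrl replicate 2 are the lowest of their group for all 10.

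The aldo-keto reductases of the AKR1C group sit side by side on chromosome 10, are reductases of steroids, prostaglandins and carbonyls, and are so similar that reads may not separate them. AKR1C1 (ENSG00000187134, chr10:4963253-4983283, plus strand) inactivates progesterone. AKR1C2 (ENSG00000151632, chr10:4987775-5018031, minus strand) inactivates dihydrotestosterone. AKR1C3 (ENSG00000196139, chr10:5035354-5107686, plus strand) makes testosterone and prostaglandin F. Over the coding sequence, 972 bases in each, AKR1C1 and AKR1C2 differ at 19 bases and are 98.0% identical, while AKR1C1 and AKR1C3 are 91.5% identical. The stretch from coding base 103 to 162 is shown because it holds 10 of those 19 differences. Capitals mark the bases at which the 3 genes are not all the same.
AKR1C1: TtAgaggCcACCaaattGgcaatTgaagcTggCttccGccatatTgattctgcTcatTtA
AKR1C2: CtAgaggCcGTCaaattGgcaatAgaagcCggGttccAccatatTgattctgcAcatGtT
AKR1C3: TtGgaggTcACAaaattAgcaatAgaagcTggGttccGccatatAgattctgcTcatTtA
Of all windows of 150 bases in the reference transcript, 7.91% of those of AKR1C1, 17.2% of those of AKR1C2 and 2.12% of those of AKR1C3 also occur in a neighbouring gene of the group. A single read of this length from such a window has no unique place, and only uniquely mapped reads were used by the authors.

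AKR1C1 was at 68.3, 61.2 and 43.7 FPKM in siPAIP1 cells, against 146, 117 and 172 FPKM in Ctrl cells. The highest siPAIP1 library was well below the lowest Ctrl library, and the mean in siPAIP1 cells was 39.7% of that in Ctrl cells. AKR1C1 fell by 1.36 ± 0.17 (SE) on the log2 scale (adjusted p = 0.0048, edgeR), the largest change of the 10 genes, and passed the test under all 15 alternative settings tried.

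AKR1C2 was at 161, 129.9 and 91.2 FPKM in siPAIP1 cells, against 249, 203 and 288 FPKM in Ctrl cells. The groups did not overlap, and AKR1C2 fell by 0.99 ± 0.19 (SE) on the log2 scale (adjusted p = 0.017, edgeR). The call was lost when siPAIP1 replicate 2 (adjusted p = 0.066, edgeR), Ctrl replicate 1 (0.079) or Ctrl replicate 3 (0.087) was left out.

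AKR1C3 was at 180.04, 153 and 117 FPKM in siPAIP1 cells, against 208, 171 and 238 FPKM in Ctrl cells. By FPKM the siPAIP1 replicate with the highest value exceeded the lowest Ctrl replicate, while on TMM-scaled CPM the groups did not overlap. The log2 fold change of AKR1C3 was -0.49 ± 0.15 (SE), with an adjusted p of 0.083 (edgeR), so it did not pass. It passed with DESeq2 (adjusted p = 0.015), without a filter on low counts in edgeR (0.0196) and in edgeR without siPAIP1 replicate 3 (0.019).

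Since AKR1C1 and AKR1C2 share stretches of sequence, their counts were also summed before the fit. The sum of AKR1C1 and AKR1C2 fell by 1.16 ± 0.18 (SE) on the log2 scale (adjusted p = 0.0092, edgeR), and that of all 3 genes by 1.01 ± 0.17 (adjusted p = 0.013, edgeR). The smaller sum missed the threshold without Ctrl replicate 1 (0.051) or Ctrl replicate 3 (0.054), and the larger one without siPAIP1 replicate 2 (0.052), Ctrl replicate 1 (0.063) or Ctrl replicate 3 (0.068).

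The ratios between the 3 neighbours were compared as well. A ratio of counts within a library does not depend on its depth, and 8 such ratios, chosen after the values were seen, were compared. AKR1C1 over AKR1C2 was 0.668, 0.740 and 0.753 in siPAIP1 cells, against 0.922, 0.910 and 0.938 in Ctrl cells. AKR1C1 over AKR1C3 was 1.19, 1.25 and 1.18 in siPAIP1 cells, against 2.21, 2.15 and 2.27 in Ctrl cells. AKR1C2 over AKR1C3 was 1.78, 1.69 and 1.56 in siPAIP1 cells, against 2.39, 2.37 and 2.42 in Ctrl cells. Each ratio was lower in every siPAIP1 library than in any Ctrl library, with an exact two-sided permutation p of 0.1, the smallest possible with 3 against 3, and 0.11 after adjustment over the 8 ratios, so none passed. AKR1C4, a liver gene of the same group, was near 2 FPKM, with 2.58, 2.19 and 1.77 FPKM in siPAIP1 cells and 2.69, 1.82 and 2.39 FPKM in Ctrl cells. Its groups overlapped and it did not pass the test (log2 fold change -0.11 ± 0.19 SE, adjusted p = 0.73, edgeR).

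**Figure D2:**
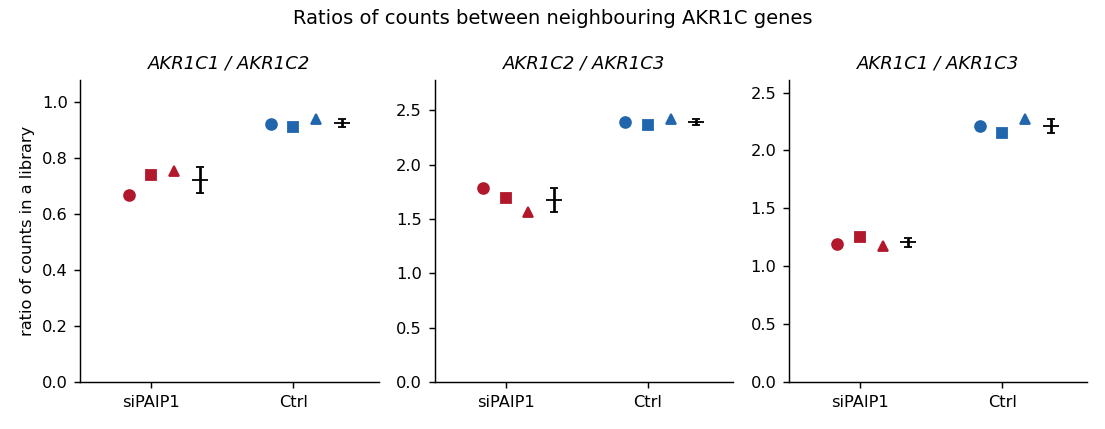
Ratio of counts between AKR1C neighbours in each library (y axis, linear, from 0), for siPAIP1 (red, left) and Ctrl (blue, right), with the mean and SD in black. AKR1C1 over AKR1C3 averages 1.21 ± 0.041 in siPAIP1 libraries and 2.21 ± 0.059 in Ctrl libraries, and no siPAIP1 ratio reaches a Ctrl ratio in the 3 panels.

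AKR1B10 (ENSG00000198074, chr7:134527567-134541412, plus strand), a reductase of retinal and of aliphatic aldehydes that is often raised in liver cancer, was at 146, 124 and 84.9 FPKM in siPAIP1 cells, against 248, 215 and 286 FPKM in Ctrl cells. The groups were apart, and AKR1B10 fell by 1.12 ± 0.17 (SE) on the log2 scale (adjusted p = 0.0085, edgeR). Without Ctrl replicate 3 the adjusted p was 0.054. Its coding sequence is 57.3% identical to that of AKR1C1, and none of its windows of 150 bases occurs in the transcripts of another gene. Its neighbour AKR1B15 was low, with 0.29, 1.50 and 1.05 FPKM in siPAIP1 cells and 3.37, 2.25 and 3.39 FPKM in Ctrl cells, and did not pass (log2 fold change -1.68 ± 0.48 SE, adjusted p = 0.063, edgeR). Of 8 other aldo-keto reductases tested, including AKR1B15 and AKR1C4, none passed the edgeR test, with a median log2 fold change of -0.30. At an unadjusted p under 0.05, 2 of them were lower, and DESeq2 called 1 lower. Of all 15528 tested genes, 11.9% passed the edgeR test and 4436 had an unadjusted p under 0.05, in either direction. AKR1A1 (-0.31, adjusted p = 0.083, edgeR) and AKR1B1 (-0.23, adjusted p = 0.19, edgeR), both aldehyde reductases, were among the 8.

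NQO1 (ENSG00000181019, chr16:69706996-69726668, minus strand), which reduces quinones directly to hydroquinones, was at 297, 281 and 217 FPKM in siPAIP1 cells, against 339.9, 277 and 331 FPKM in Ctrl cells. It was the only one of the 10 genes whose groups overlapped on both scales, and it did not pass (log2 fold change -0.29 ± 0.11 SE, adjusted p = 0.15, edgeR). With NQO1 as the denominator, AKR1C1 over NQO1 averaged 0.495 ± 0.033 in siPAIP1 cells and 1.05 ± 0.12 in Ctrl cells (SD, n = 3 each, exact permutation p = 0.1). AKR1B10 over NQO1 averaged 0.225 ± 0.025 in siPAIP1 cells and 0.402 ± 0.034 in Ctrl cells (SD, n = 3 each, exact permutation p = 0.1).

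Glutathione synthesis starts with glutamate-cysteine ligase, made of the catalytic subunit GCLC (ENSG00000001084, chr6:53497341-53616970, minus strand) and the modifier subunit GCLM (ENSG00000023909, chr1:93885199-93909456, minus strand). GCLC was at 8.76, 9.04 and 7.49 FPKM in siPAIP1 cells, against 10.9, 10.6 and 11.5 FPKM in Ctrl cells. Its libraries were the tightest of the 10 genes, with a coefficient of variation of 4.50% in siPAIP1 and 2.98% in Ctrl libraries on CPM, and GCLC fell by 0.42 ± 0.070 (SE) on the log2 scale (adjusted p = 0.012, edgeR). The call was lost under 5 of 15 alternatives. They were edgeR without Ctrl replicate 1 (0.067) or Ctrl replicate 3 (0.069), edgeR with the replicate number as a block (0.056), and limma on log2(FPKM + 1) (0.052) and on log2(FPKM + 0.1) (0.052). GCLM was at 6.55, 6.10 and 4.51 FPKM in siPAIP1 cells, against 7.10, 6.44 and 8.16 FPKM in Ctrl cells. Its groups overlapped by FPKM and not by CPM, and it did not pass (log2 fold change -0.37 ± 0.13 SE, adjusted p = 0.102, edgeR), although it did without siPAIP1 replicate 3 (0.033). The ratio of GCLM to GCLC counts averaged 0.658 ± 0.071 in siPAIP1 cells and 0.639 ± 0.048 in Ctrl cells (SD, n = 3 each), with overlapping groups (exact permutation p = 0.8).

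Thioredoxin and peroxiredoxin are kept active by TXNRD1 (ENSG00000198431, chr12:104215779-104350307, plus strand), which reduces thioredoxin with NADPH, and by SRXN1 (ENSG00000271303, chr20:646615-653200, minus strand), which repairs overoxidized peroxiredoxins. TXNRD1 was at 58.5, 55.6 and 45.2 FPKM in siPAIP1 cells, against 86.0, 78.1 and 94.2 FPKM in Ctrl cells. The groups were far apart, and TXNRD1 fell by 0.73 ± 0.095 (SE) on the log2 scale (adjusted p = 0.0053, edgeR), passing under all 15 alternatives. SRXN1 was at 54.9, 53.8 and 42.0 FPKM in siPAIP1 cells, against 64.8, 57.5 and 70.9 FPKM in Ctrl cells. The gap between its groups was narrow, and SRXN1 fell by 0.39 ± 0.10 (SE) on the log2 scale with an adjusted p of 0.048 (edgeR), a call lost under 9 of 15 alternatives, among them leaving out any 1 library other than siPAIP1 replicate 3 (adjusted p 0.061 to 0.18). In the annotation used here, a second gene on the same strand covers 90.2% of the 150-base windows of SRXN1, so its reads could be assigned to either. That second gene is not among the 30987 counted genes, and how such reads were counted was not tested. The ratio of TXNRD1 to SRXN1 counts averaged 1.98 ± 0.039 in siPAIP1 cells and 2.50 ± 0.033 in Ctrl cells (SD, n = 3 each, exact permutation p = 0.1).

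HMOX1 (ENSG00000100292, chr22:35380361-35394214, plus strand), the inducible heme oxygenase that opens heme to biliverdin, carbon monoxide and iron, was at 39.1, 36.3 and 29.7 FPKM in siPAIP1 cells, against 66.6, 62.7 and 71.1 FPKM in Ctrl cells. The groups did not overlap, and HMOX1 fell by 0.96 ± 0.089 (SE) on the log2 scale (adjusted p = 0.0018, edgeR), the lowest adjusted p of the 10 in this fit, and the call held under all 15 alternatives. Its constitutive relative HMOX2 was at 21.5, 20.3 and 16.6 FPKM in siPAIP1 cells and 20.4, 17.4 and 20.5 FPKM in Ctrl cells, with overlapping groups (log2 fold change -0.03, adjusted p = 0.87, edgeR).

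**Figure D3:**
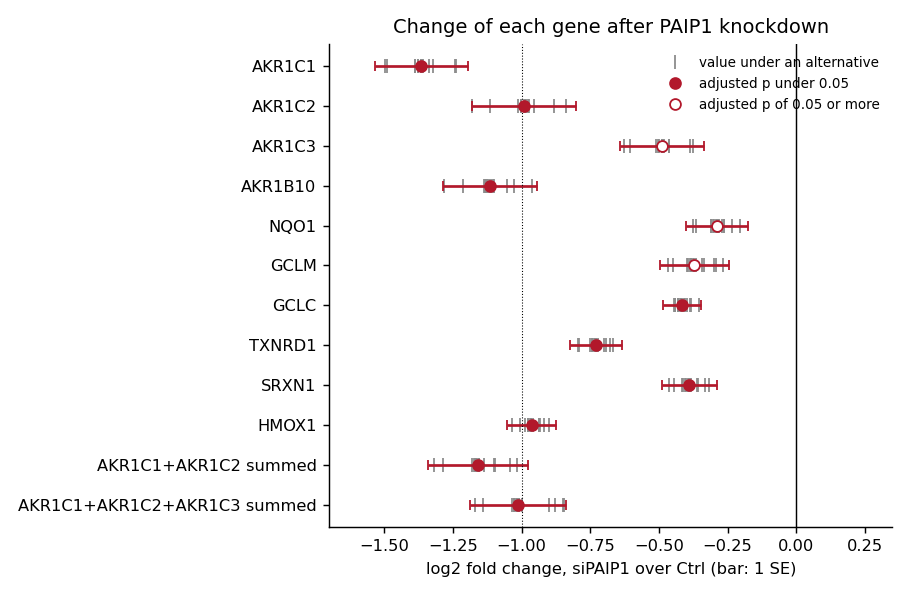
Log2 fold change of siPAIP1 over Ctrl (x axis) for the 10 genes and for the summed AKR1C counts. Circles are edgeR estimates with bars of 1 SE, filled where the adjusted p is under 0.05, grey ticks are the values under the alternative settings, and the dotted line marks the fold threshold of 0.5. Every value is below 0, with circles from -1.36 for AKR1C1 to -0.29 for NQO1 and ticks from -1.50 for AKR1C1 to -0.21 for NQO1.

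The replicates of each group deviated together. On CPM, siPAIP1 replicate 3 was the lowest siPAIP1 library for all 10 genes, and Ctrl replicate 2 the lowest Ctrl library for all 10. The same held for 60.6% and 49.5% of the 5101 genes at or above the level of the lowest of the 10. Ctrl replicate 3 was the highest Ctrl library for 9 of the 10, and for NQO1 it was Ctrl replicate 1. The coefficient of variation ran from 4.50% (GCLC) to 23.4% (AKR1C2) in siPAIP1 libraries and from 2.98% (GCLC) to 17.6% (AKR1C1) in Ctrl libraries, against medians of 8.45% and 5.50% over the same 5101 genes in siPAIP1 and Ctrl libraries. In the study's mapping summary these same libraries, siPAIP1 replicate 3 and Ctrl replicate 2, had the most multiply mapped reads of their groups. With both left out, an alternative chosen for that reason and added after the data were seen, all 10 genes passed as lower in edgeR, while the number of genes called in all went up to 4915.

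Levels can be compared between genes only per length, and the order depended on which length was used. By FPKM in siPAIP1 cells, NQO1 was highest at 265 ± 42.2 (SD, n = 3), followed by AKR1C3, AKR1C2 and AKR1B10, whose ranges overlapped, then by AKR1C1, TXNRD1 and SRXN1, whose ranges also overlapped, and by HMOX1, GCLC and GCLM, each apart from the next. By FPKM in Ctrl cells, NQO1 was at 316 ± 34.2 (SD, n = 3), with AKR1B10, AKR1C2, AKR1C3 and AKR1C1 each overlapping the next, and TXNRD1, HMOX1 with SRXN1, GCLC and GCLM below them. The authors' FPKM values imply a length for AKR1C1 4.49 times that of AKR1B10. The coding sequences are of nearly the same length, while the reference transcripts, UTRs included, have 6543 bases for AKR1C1 and 1619 for AKR1B10. Per kilobase of coding sequence, and without the TMM correction, AKR1C1 was at 470 ± 78.4 CPM in siPAIP1 cells and 1161 ± 201 in Ctrl cells (SD, n = 3 each), above AKR1B10 at 219 ± 46.1 in siPAIP1 cells and 455 ± 57.5 in Ctrl cells. By FPKM the order of this pair was the reverse, with AKR1C1 at 57.7 ± 12.6 in siPAIP1 cells and 145 ± 27.4 in Ctrl cells, against AKR1B10 at 118 ± 30.8 in siPAIP1 cells and 249.9 ± 35.4 in Ctrl cells. Per kilobase of reference transcript the order was that of FPKM. AKR1C1 was then at 69.9 ± 11.6 CPM in siPAIP1 cells and 172 ± 29.9 in Ctrl cells (SD, n = 3 each). AKR1B10 was at 128 ± 27.1 CPM in siPAIP1 cells and 267 ± 33.8 in Ctrl cells. The coding length leaves out the UTRs. The fold changes between groups do not depend on this choice.

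**Figure D4:**
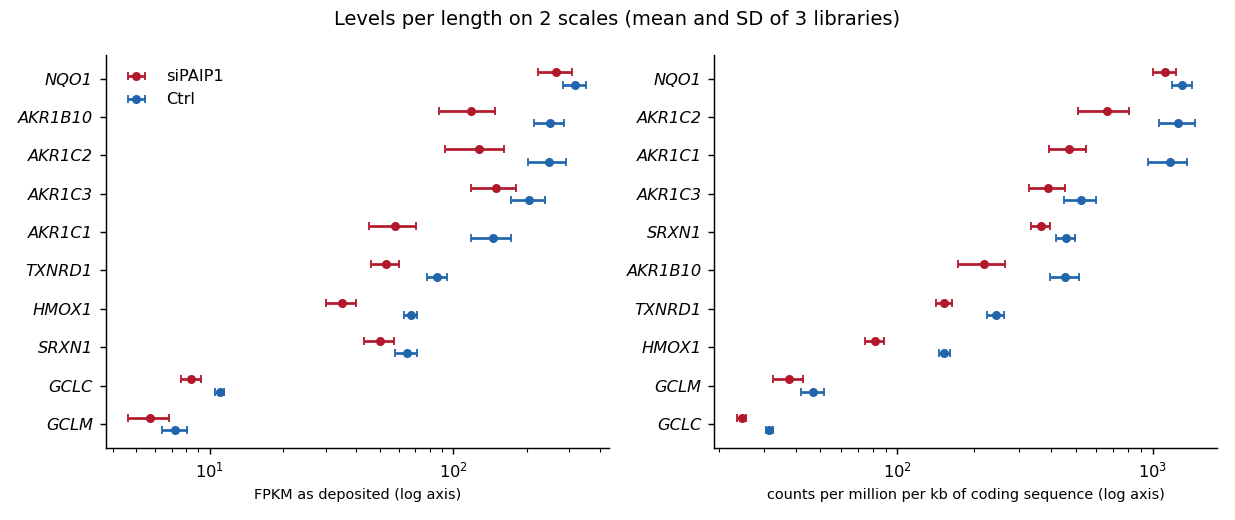
Mean and SD of the 3 libraries of each group (siPAIP1 red, above, and Ctrl blue, below) for each gene, as FPKM (left, log axis) and as CPM per kilobase of coding sequence (right, log axis). NQO1 leads on both scales by its mean, and AKR1C1 stands below AKR1C3 and AKR1B10 by FPKM and above them per coding length. In siPAIP1 cells the ranges of AKR1C1 and AKR1C3 overlap per coding length. Per kilobase of reference transcript, which is not drawn, AKR1C1 stands below AKR1C3 and AKR1B10 in both groups. On that scale NQO1 has the highest mean in siPAIP1 cells and AKR1C3 in Ctrl cells, with ranges that overlap.

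The regulators of the pathway were examined as a list of 13 genes, all tested, of which 2 fell and none rose in edgeR, with a median log2 fold change of 0.05. For comparison, 6.2% of all tested genes fell and 5.68% rose. At an unadjusted p under 0.05, 3 were lower and 2 higher, and DESeq2 called none higher. Of all 15528 tested genes, 4436 had an unadjusted p under 0.05, in either direction. In edgeR, 1 was called higher without a filter on low counts (MAFG, adjusted p = 0.046), 1 with a stricter filter (GSK3B, 0.043) and 1 without siPAIP1 replicate 3 (GSK3B). NFE2L2, which encodes NRF2, was at 32.8, 31.4 and 23.2 FPKM in siPAIP1 cells, against 45.0, 41.7 and 46.3 FPKM in Ctrl cells. The groups did not overlap, and NFE2L2 fell by 0.64 ± 0.11 (SE) on the log2 scale (adjusted p = 0.011, edgeR), a call lost without Ctrl replicate 1 (0.062) or Ctrl replicate 3 (0.066). SQSTM1, whose product p62 draws KEAP1 away from NRF2 and which is itself an NRF2 target, was at 109, 110.5 and 92.0 FPKM in siPAIP1 cells, against 128, 119 and 155 FPKM in Ctrl cells. It fell by 0.40 ± 0.10 (SE) on the log2 scale with an adjusted p of 0.049 (edgeR), and the call was lost without any 1 library other than siPAIP1 replicate 3 (adjusted p 0.060 to 0.15).

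KEAP1 was at 26.2, 24.6 and 23.4 FPKM in siPAIP1 cells, against 24.8, 25.4 and 27.4 FPKM in Ctrl cells. On CPM its groups overlapped (log2 fold change -0.09 ± 0.069 SE, adjusted p = 0.42, edgeR), as did those of its ligase partners CUL3 (0.13, adjusted p = 0.30) and RBX1 (0.02, adjusted p = 0.90), of the competitor BACH1 (0.05, adjusted p = 0.69) and of DPP3 (-0.06, adjusted p = 0.59), another KEAP1-binding protein. By FPKM the BACH1 groups did not overlap, with 2.50, 2.46 and 2.47 FPKM in siPAIP1 cells, against 2.28, 2.32 and 2.44 FPKM in Ctrl cells. Among the small MAF partners, MAFG was at 10.5, 10.5 and 14.9 FPKM in siPAIP1 cells, against 8.35, 9.03 and 9.01 FPKM in Ctrl cells. Every siPAIP1 library lay above every Ctrl library, yet siPAIP1 replicate 3 stood apart and MAFG did not pass (log2 fold change 0.43 ± 0.17 SE, adjusted p = 0.15, edgeR). MAFK (0.28, adjusted p = 0.35) and MAFF (0.11, adjusted p = 0.64) did not pass either in edgeR. In the second route of NRF2 turnover, the kinase GSK3B had a log2 fold change of 0.29 ± 0.077 SE (adjusted p = 0.053, edgeR), and it passed without siPAIP1 replicate 3 (0.0092). Its partner BTRC had one of -0.18 (adjusted p = 0.17) and the related factor NFE2L1 one of 0.38 (adjusted p = 0.27) in edgeR.

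A list of 28 further NRF2 target genes held 26 that were tested, of which 12 fell and none rose, with a median log2 fold change of -0.35. None rose at an unadjusted p under 0.05 or with DESeq2 either. The remaining 14 did not pass, and ME1 and CBR3 were too low to be tested. For 20 of the 26, the siPAIP1 libraries were all lower than the Ctrl libraries on CPM, without overlap. Over all tested genes these shares were 6.2% for genes that fell and 17.6% for such a separation. The separation held for 23.1% of the 5101 genes at or above the level of the lowest of the 10. Some of the 26, such as SLC7A11 and CYP4F11, lay below that level. The number that fell was 5 to 19 when 1 library was left out, lowest without Ctrl replicate 3 and highest without siPAIP1 replicate 3, with 6 without siPAIP1 replicate 2, Ctrl replicate 1 or Ctrl replicate 2. Of all tested genes 963 fell, which became 269 without Ctrl replicate 3 and 1952 without siPAIP1 replicate 3. SLC48A1, a heme transporter, was at 7.55, 7.29 and 7.63 FPKM in siPAIP1 cells, against 17.1, 17.6 and 20.2 FPKM in Ctrl cells. It fell by 1.31 ± 0.093 (SE) on the log2 scale (adjusted p = 0.00092, edgeR), the largest change of the list, with siPAIP1 libraries close to each other. GPX2, a glutathione peroxidase, was at 539, 468 and 369.9 FPKM in siPAIP1 cells, against 848, 713 and 935 FPKM in Ctrl cells. It fell by 0.89 ± 0.13 (SE) on the log2 scale (adjusted p = 0.0078, edgeR, and 0.0503 without Ctrl replicate 3). The others that fell were CYP4F11 (-0.75), the ferritin light chain FTL (-0.73), the epoxide hydrolase EPHX1 (-0.69), OSGIN1 (-0.59), FTH1 (-0.45), MGST1 (-0.45), the cystine transporter SLC7A11 (-0.45), glutathione reductase GSR (-0.43), ABCB6 (-0.38) and UGDH (-0.36), with adjusted p of 0.0030 to 0.048 (edgeR). FTL and FTH1 have many processed pseudogenes, so their counts are uncertain.

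The wider redox lists share some genes with the list above, and were also drawn up with earlier results of these data known. Over all tested genes, 6.2% fell and 5.68% rose. These were 963 and 882 genes, and with 1 library left out 269 to 1952 genes fell and 187 to 1857 rose. Of 25 tested genes of glutathione synthesis and use, 9 fell and 1 rose, with a median log2 fold change of -0.15. Of the 9, GSR, GPX2, SLC7A11 and MGST1 were already counted among the further targets. The 9 became 2 without Ctrl replicate 3, 3 without Ctrl replicate 1 and 4 without siPAIP1 replicate 2 or Ctrl replicate 2. GPX3, a secreted peroxidase, fell by 0.81 ± 0.10 and SLC3A2, the partner chain of SLC7A11, by 0.61 ± 0.078 on the log2 scale (adjusted p = 0.0052 and 0.0050, edgeR). GSTZ1 rose, with 17.9, 18.5 and 15.1 FPKM in siPAIP1 cells, against 12.8, 10.9 and 12.8 FPKM in Ctrl cells (log2 fold change 0.47 ± 0.089 SE, adjusted p = 0.017, edgeR). Of 18 tested thioredoxin, peroxiredoxin and superoxide enzymes, 4 fell and 2 rose, with a median of -0.17. The 4 became 1 without siPAIP1 replicate 2, Ctrl replicate 1 or Ctrl replicate 3 and 2 without Ctrl replicate 2, and the 2 became 0 without any 1 library other than siPAIP1 replicate 3. Catalase, CAT, which breaks down hydrogen peroxide, was at 23.7, 22.8 and 15.6 FPKM in siPAIP1 cells, against 39.1, 35.6 and 39.1 FPKM in Ctrl cells, and fell by 0.91 ± 0.12 (SE) on the log2 scale (adjusted p = 0.0062, edgeR). TXNRD3, a relative of TXNRD1, rose with a log2 fold change of 0.59 ± 0.11 (SE), and the peroxiredoxin PRDX4 with one of 0.48 ± 0.10 (adjusted p = 0.017 and 0.028, edgeR).

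Of 10 tested genes of NADPH supply, IDH1 fell by 0.52 ± 0.10 and RPIA rose by 0.30 ± 0.068 on the log2 scale (adjusted p = 0.021 and 0.032, edgeR), with a median of -0.07. Of 10 genes of heme and iron storage, 5 fell, against 6.2% of all tested genes, with a median of -0.33. None rose, by edgeR or DESeq2 or at an unadjusted p under 0.05. FTL, FTH1, SLC48A1 and ABCB6 were already counted among the further targets that fell. The other was ALAS1, the rate-limiting enzyme of heme synthesis, which fell by 0.39 ± 0.091 (SE) on the log2 scale (adjusted p = 0.035, edgeR). The 5 that fell became 2 without siPAIP1 replicate 2 or any 1 of the Ctrl replicates and 3 without siPAIP1 replicate 1. Without siPAIP1 replicate 3, 3 genes of NADPH supply fell, and of the heme and iron genes 6 fell and 2 rose. Of all 15732 genes tested in that setting, 1952 fell and 1857 rose. The calls of GSTZ1, TXNRD3, PRDX4, RPIA, IDH1 and ALAS1 were each lost without siPAIP1 replicate 2 or any 1 of the Ctrl replicates, and all of these but IDH1 also without siPAIP1 replicate 1 and with the replicate number as a block.

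**Figure D5:**
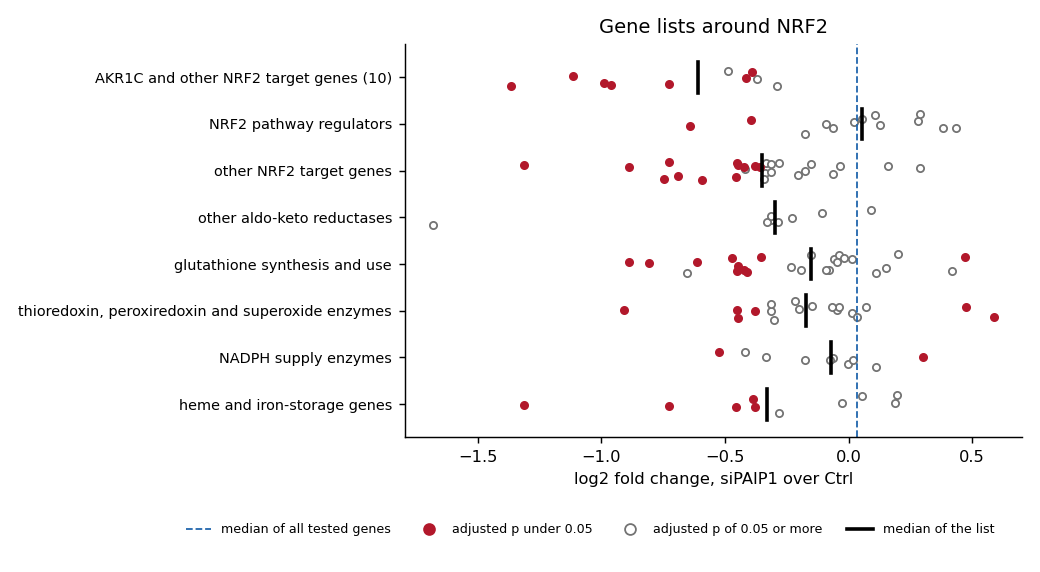
Log2 fold change of siPAIP1 over Ctrl (x axis) for each tested gene of the 10 NRF2 target genes and of 7 related lists, 1 row a list, with vertical jitter only to separate points. Red points have an adjusted p under 0.05, black bars are list medians and the dashed line is the median of all tested genes. The 10 genes and the 26 further targets lie mostly to the left of that line, the regulators on either side of it.

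The sequence just before the start of each gene was searched for the letters of the antioxidant response element, TGACNNNGC, on either strand, in RefSeq promoters of GRCh38.p14 that run from 250 bases before the start to 50 after it. The letters occurred in 13.3% of 35116 promoters of this length and in 2 of the 8 genes of the group that have an entry, GCLM and TXNRD1, which is 3 of their 10 promoters. AKR1B10 and HMOX1 have no entry in the table. Of 19 further target genes with an entry, 9 held the letters, in 9 of 24 promoters (37.5%). The stricter word TGACTCAGC, which TGACNNNGC contains, was in 0.561% of all promoters, in none of the 8 and in 2 of the 19, ME1 and PIR. A match is a description of letters and not a binding site, and elements farther away would not be seen. The 250 bases before the RefSeq start are shown for both genes with the letters in capitals, on the gene's strand, where they read in the reverse complement.
GCLM chr1:93909431-93909680 minus strand: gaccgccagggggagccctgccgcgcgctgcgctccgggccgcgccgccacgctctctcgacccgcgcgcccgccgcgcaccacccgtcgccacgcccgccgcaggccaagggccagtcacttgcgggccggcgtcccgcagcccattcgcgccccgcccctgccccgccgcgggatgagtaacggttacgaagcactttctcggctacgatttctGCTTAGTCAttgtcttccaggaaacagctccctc
TXNRD1 chr12:104286782-104287031 plus strand: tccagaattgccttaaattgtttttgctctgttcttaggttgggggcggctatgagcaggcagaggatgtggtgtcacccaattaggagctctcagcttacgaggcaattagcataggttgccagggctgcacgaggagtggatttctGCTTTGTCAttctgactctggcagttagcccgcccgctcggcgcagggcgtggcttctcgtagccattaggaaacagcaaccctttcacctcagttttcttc
TXNRD1 has a second promoter in the table, which holds the letters at 2 other places.

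AKR1C1 and AKR1C2 have nearly the same sequence before their RefSeq starts. Of the 250 bases, 245 are identical when aligned, and only the ends, in capitals, are not shared.
AKR1C1 chr10:4963165-4963414 plus strand: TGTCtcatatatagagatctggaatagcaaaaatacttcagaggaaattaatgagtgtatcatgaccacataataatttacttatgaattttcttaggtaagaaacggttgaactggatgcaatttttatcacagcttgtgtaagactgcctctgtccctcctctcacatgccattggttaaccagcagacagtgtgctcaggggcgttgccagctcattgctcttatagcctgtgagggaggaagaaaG
AKR1C2 chr10:5003858-5004107 minus strand: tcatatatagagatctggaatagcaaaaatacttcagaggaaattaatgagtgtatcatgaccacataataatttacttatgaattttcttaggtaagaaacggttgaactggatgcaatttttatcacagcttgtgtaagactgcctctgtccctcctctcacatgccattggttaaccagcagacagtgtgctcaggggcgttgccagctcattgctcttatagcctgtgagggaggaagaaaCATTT
Over the whole 300 bases the identity was 93.5% between AKR1C1 and AKR1C2 and 73.5% between AKR1C1 and AKR1C3.

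The genes whose pattern was most like that of AKR1C1 were sought over the 6 libraries by Pearson's r of log2 CPM among 10452 protein-coding genes whose mean log2 CPM reached 2. The 6 points share the group difference and the depth of each library, and 588 genes had an r of 0.95 or more. TXNRD1 was the nearest of all, with r = 0.999, and NQO1 the farthest of the 10, with r = 0.893. Outside the 10, the nearest were vitronectin VTN (0.999), RNF141 (0.998), RBM24 (0.998), the asialoglycoprotein receptor ASGR1 (0.998) and GPX2 (0.998).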

How the data were processed

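The deposited count values are raw numbers of fragments with a unique place, per gene. The authors trimmed the reads (bcl2fastq, FASTX-Toolkit) and aligned them by TopHat2 to GRCh38, allowing 4 mismatches. The deposited FPKM values are theirs too, from the same alignments. How fragments were counted, whether strand was used and which annotation release applied is not given in the sources used here. For the 6 libraries (3 siPAIP1, 3 Ctrl), counts of 30987 genes were scaled by TMM, filtered by filterByExpr (15528 kept) and tested with edgeR 4.0.16 (glmQLFit, glmQLFTest, group the only term, R 4.3.3) with Benjamini-Hochberg adjustment over all tested genes. A call has an adjusted p under 0.05. Standard errors are the fitted change divided by the root of its F value. Intervals and errors cover the spread between these cultures only, which the study calls biological replicates. The median biological coefficient of variation was 0.124.

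Alternatives were 2 other scalings, no filter and a stricter one, DESeq2 1.42.0, limma 3.58.1 on log2(FPKM + 1) and log2(FPKM + 0.1), a block for the replicate number and leaving out libraries. Whether the replicate numbers pair the samples is not given in the sources used here. The deviations of same-numbered libraries correlated at 0.26, -0.28 and -0.15, which cannot decide it with groups this small. Coordinates and coding sequences come from GENCODE release 44 on GRCh38, and promoters from RefSeq. Code was tested on simulated data. The genes and lists were chosen with earlier results of these data known. Named genes are the 10 targets, PAIP1, all regulators, cell type markers, and the list genes that were called or had the lowest adjusted p. HMOX2, AKR1C4 and ALB were chosen after their values were seen. Protein identity was not analysed here. Figures used matplotlib 3.10.9.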

Additional observations from a re-analysis of the deposited data

How the results depend on the processing

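Under 15 alternatives none of the 10 NRF2 target genes changed sign, and AKR1C1, TXNRD1 and HMOX1 passed in every one. The genes called in all were 1845, against 1196 and 1216 with limma on log2(FPKM + 1) and log2(FPKM + 0.1), 463 to 3809 when 1 library was left out and 4915 without both Ctrl replicate 2 and siPAIP1 replicate 3, and the cause was not tested. Of the 10 genes, 3 to 9 were called when 1 library was left out, with 3 without Ctrl replicate 3 and 4 without Ctrl replicate 1, and 1 to 4 passed the fold threshold too. Leaving out 1 library put the summed AKR1C1 and AKR1C2 at -1.32 to -1.02, past the threshold except without Ctrl replicate 1 or 3, and the sum with AKR1C3 at -1.17 to -0.88, past it except without siPAIP1 replicate 2 or Ctrl replicate 1 or 3. With the replicate number as a block, 825 genes in all and 5 of the 10 were called. Whether the numbers pair the samples is not known, and the deviations of siPAIP1 replicate 3 correlated best with those of Ctrl replicate 2 (0.39). The PAIP1 call held in every alternative. Of the 10 genes GCLM had the fewest counts, 778 in siPAIP1 replicate 3, while the further targets ME1 and CBR3 had too few to be tested.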
